A study of Rattus norvegicus with 14 samples.

Results

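Epithelioid peritoneal mesotheliomas of rats were compared with control peritoneal tissue in a series of 14 Affymetrix arrays, 1 array for each sample. The epithelioid tumors were the 3 samples whose tissue label names epithelioid mesothelioma, and they were set against the 3 control samples. The other 8 arrays of the series, 3 biphasic and 5 sarcomatoid tumors, served for the comparison between tumor types. All animals were male Wistar rats. Each epithelioid tumor followed 1 intraperitoneal injection of a different material suspended in artificial lung medium: MWCNT D, MWCNT B (2 tailor-made multiwalled carbon nanotubes that differ in length, diameter and curvature) or amosite asbestos. The biphasic tumors came from MWCNT D, MWCNT C and amosite, and the sarcomatoid tumors from MWCNT D, MWCNT C, MWCNT B and amosite. The controls were tumor-free peritoneal tissues, called sham-treated in the sample labels and untreated in the study's methods. Every epithelioid tumor therefore has its own inducer, and the spread among the 3 tumors cannot be told apart from a spread among inducers.

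Mesothelium is the flat lining of the body cavities, and its cells, although derived from mesoderm, carry the simple-epithelial keratins, desmosomes and tight junctions of an epithelium together with vimentin. In mesothelioma the epithelioid form grows as sheets, papillae or tubules of epithelium-like cells, the sarcomatoid form as spindle cells, and the biphasic form holds both. A piece of such a tumor also contains fibroblasts, vessels and immune cells.

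The values are log2(PLIER signal + 1), called log2 signal from here on, and a change is a difference of log2 signals, where 1 unit is a doubling or halving. In each run of values the epithelioid tumors are given in the order MWCNT D, MWCNT B, amosite, and the controls in the order of their replicate numbers. A gene was called when limma gave a Benjamini-Hochberg adjusted p below 0.05 and the fold change was above 2 in either direction. Signals far below a log2 of 5 have little meaning as levels. The difference was therefore also computed with all lower values raised to that floor, and is given for many of the genes whose controls lay below it. Tissues were measured in bulk, and fewer cells of a type cannot be told apart from less RNA per cell. The array sets the precision through the number of samples, 3 in each group.

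The labels were checked against markers first. Of 15 measured mesothelial genes, 13 were higher in the epithelioid tumors, whereas 9 of the 15 averaged below the floor in the control tissues. The control tissues held skeletal muscle: sarcomere genes took 0.0366%, 0.0356% and 0.0239% of the total signal of the epithelioid tumors, against 8.46%, 8.29% and 9.52% in the controls. Genes of pancreatic acinar enzymes took 0.0166%, 0.00985% and 6.0% of the signal of the epithelioid tumors, against 0.00564%, 0.00504% and 0.00566% in the controls, so that the amosite tumor stood apart. The median signal was 144, 146 and 154 in the epithelioid tumors and 96.9, 104 and 101 in the controls. The log2 difference between the 3' and the 5' probe sets of beta-actin was 0.5, 0.38 and 0.6 in the epithelioid tumors and -1.24, -0.65 and -1.05 in the controls. How far the differences in tissue make-up and RNA enter the results below was not tested, and other scalings of the arrays are given beside the counts. Across all probe sets, the epithelioid tumors correlated with each other at r = 0.901 to 0.958, and with the controls at r = 0.684 to 0.742. The 3 controls correlated with each other at r = 0.969 to 0.975.

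Against the controls, 10620 of 31042 probe sets were called (34.2%), 7628 of them higher in the epithelioid tumors (24.6% of those tested) and 2992 lower (9.64%). Counted by gene, 3877 of 14217 were higher (27.3%) and 1415 were lower (9.95%), and these are the shares against which the gene groups below are read. Of the higher genes, 3845 had no overlap between the groups, as had 1409 of the lower genes. Selection by the call favours such a separation, and its share over all genes was not computed. Without the amosite tumor, 3403 of the higher and 1282 of the lower genes were called again. The balance of directions depended on how the arrays were scaled: 71.8% of the called probe sets were higher with the arrays as deposited, 49.9% after quantile normalization and 41.5% after each array was centred on its median. Centring left 2221 higher genes, all of them among those called higher before, and brought the lower genes to 2678. The median difference of all genes was 0.46 as deposited and -0.1 after centring.

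**Figure D1:**
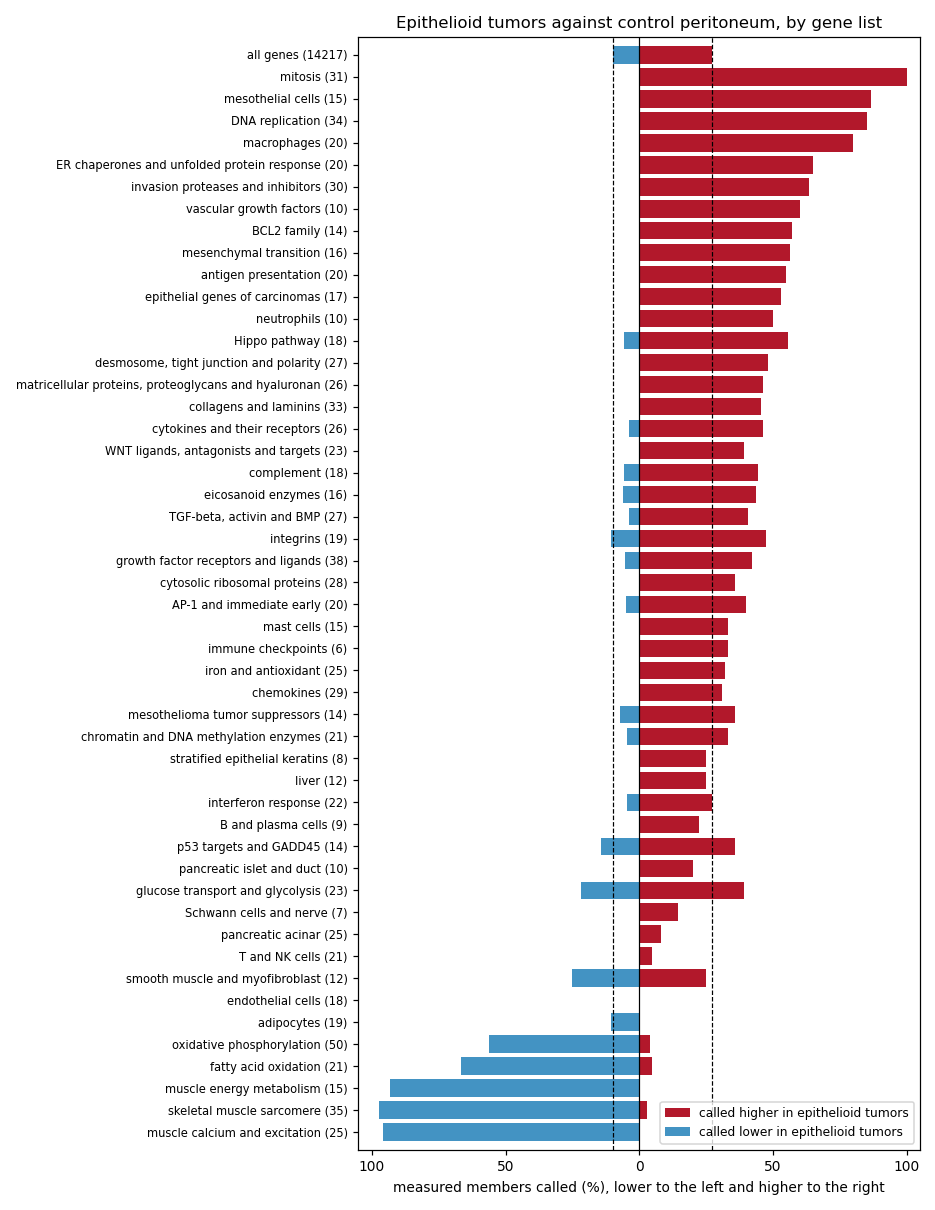
Share of the measured members of each gene list that were called higher (to the right) or lower (to the left) in the epithelioid tumors than in the controls, in percent. Dashed lines mark the shares over all genes, 27.3% higher and 9.95% lower; the mitosis list reached 31 of 31 higher and the sarcomere list 34 of 35 lower.

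Mesothelial and simple-epithelial genes were among the highest rises. Of 15 measured mesothelial genes 13 rose and none fell, with a median difference of 7.48 against 0.46 over all genes, and 13 were also called at the floor, with centred arrays and without the amosite tumor. Krt7, a simple-epithelial keratin, had log2 signals of 11.26, 11.27 and 11.15 in the epithelioid tumors, against 3.33, 2.75 and 2.71 in the controls (difference 8.30, standard error 0.74, adjusted p = 4.3e-06; 6.23 at the floor). The 3 tumors lay within 0.2 of each other and far above all controls. Krt18 had 10.96, 11.40 and 11.05 in the epithelioid tumors, against 0.03, 1.81 and 3.66 in the controls (difference 9.31, standard error 1.23; 6.14 at the floor). Its partner Krt8 had 11.92, 12.54 and 12.37 in the epithelioid tumors and 3.05, 3.84 and 5.47 in the controls (difference 8.16; 7.12 at the floor). All 3 keratins separated the groups without overlap, and the spread was wider in the controls, whose signals were near background.

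Wt1, the transcription factor of mesothelium and urogenital ridge, had log2 signals of 12.06, 11.68 and 13.39 in the epithelioid tumors, against 3.62, 3.26 and 5.54 in the controls (difference 8.24, standard error 1.05; 7.20 at the floor), and both of its probe sets were called. Msln, which encodes the mesothelial surface protein mesothelin, had 13.29, 13.06 and 12.83 in the epithelioid tumors and 4.82, 3.50 and 6.64 in the controls (difference 8.08; 7.52 at the floor). The highest control value of either gene was below the lowest tumor value by over 5 units. Lrrn4, a leucine-rich repeat membrane protein used as a mesothelial marker, was well above the floor in every sample, with 12.86, 11.57 and 13.24 in the epithelioid tumors and 7.87, 7.54 and 7.78 in the controls (difference 4.82, standard error 0.58). Bnc1, a zinc finger factor of mesothelial and squamous cells, rose by 8.07 and the uroplakin Upk1b by 7.48. Smaller rises were those of Gpm6a (4.11), Tm4sf1 (3.66), the retinoic acid enzyme Aldh1a2 (3.28) and the WNT agonist Rspo1 (2.23). Calb2, which encodes the clinical marker calretinin, stood at 7.42, 7.65 and 7.72 in the epithelioid tumors and at 7.27, 7.52 and 7.36 in the controls (difference 0.22, adjusted p = 0.35). The podoplanin gene Pdpn differed by 1.99 (adjusted p = 0.078), and its groups did not overlap.

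The 12 genes with the highest rises under the rule for named genes included further keratins and secreted proteins, most of them with controls at background. Ptgds, the lipocalin-type prostaglandin D synthase, had log2 signals of 12.64, 12.43 and 13.52 in the epithelioid tumors, against 0.01, 0.01 and 2.23 in the controls (difference 12.12, standard error 1.30, adjusted p = 1.8e-05; 7.86 at the floor). Krt14, a keratin of basal epithelial cells, had 12.03, 12.24 and 10.45 in the epithelioid tumors and 0.01, 1.11 and 0.01 in the controls (11.19; 6.57 at the floor). Myrf, a membrane-bound transcription factor best known from myelinating glia, had 10.98, 10.28 and 11.69 in the epithelioid tumors and 0.01, 0.01 and 0.03 in the controls (10.97, standard error 0.46, adjusted p = 2.6e-09; 5.98 at the floor). These 3 genes were at or near zero signal in the controls, so that the size of the fold rests on the floor chosen. Others of the 12 were Wfdc18 (7.81 at the floor), the protease inhibitor A2m (6.04), the chloride channel family protein Clic3 (5.03), the annexin Anxa8 (4.53) and the keratin Krt19 (6.88). The rise of Gabrp, a GABA-A receptor subunit, was 8.41 as measured and 3.42 at the floor, where it was not called. The mast cell protease Mcpt10 rose by 8.51, or 3.60 at the floor. Cela2a, a pancreatic elastase, had 5.42, 5.80 and 17.03 in the epithelioid tumors and 0.02, 0.06 and 1.81 in the controls, and its call rested on the amosite tumor: without it the difference was 4.98 (adjusted p = 0.12). At the floor no gene of the acinar list was called higher, Cela2a included. The stratified keratins as a list did not rise, with 2 of 8 measured members called. Krt5 and Krt17 of that list differed by 0.20 and 0.84.

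Genes of epithelial adhesion and polarity rose in part. Of 17 measured genes that mark carcinomas and other epithelia, 9 rose and none fell (6 rose at the floor, and 6 rose and 1 fell with centred arrays); of 27 genes of desmosomes, tight junctions and polarity, 13 rose and none fell. E-cadherin (Cdh1) had log2 signals of 9.62, 11.05 and 10.62 in the epithelioid tumors, against 2.12, 3.29 and 2.83 in the controls (difference 7.68, standard error 1.24; 5.43 at the floor). The adhesion molecule Epcam had 11.06, 10.44 and 10.97 in the epithelioid tumors and 4.11, 2.78 and 3.57 in the controls (difference 7.34; 5.82 at the floor). Both were uniform among the tumors, within 1.5 units. Among desmosome genes, Pkp1 rose by 8.41 (4.40 at the floor), Dsg2 by 8.40 (5.95) and desmoplakin (Dsp) by 5.74 (5.47), although another probe set of Dsp was called lower. Ezrin (Ezr), the linker of microvilli to the actin cortex, had 12.38, 12.40 and 12.76 in the epithelioid tumors, against 5.05, 6.16 and 6.85 in the controls (difference 6.50, standard error 0.38, adjusted p = 8.6e-08). The tight junction scaffold Tjp1 rose by 2.10. Claudin genes were less uniform: Cldn7 had 4.02, 9.07 and 7.61 in the epithelioid tumors and 3.31, 3.22 and 1.06 in the controls, so that the MWCNT D tumor was close to the controls. Cldn4 differed by 5.04 as measured and by 1.71 at the floor, where it was not called. Elf3, an epithelial ETS factor, had 7.28, 12.56 and 12.86 in the epithelioid tumors and 6.31, 6.51 and 6.56 in the controls; its difference of 4.44 lost the call at the floor, with centred arrays and when any of 5 arrays was left out, and was 3.46 without the amosite tumor (adjusted p = 0.13). The lung factors Nkx2-1 and Sftpc, the intestinal factor Cdx2 and the keratin Krt20 were not called.

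**Figure D2:**
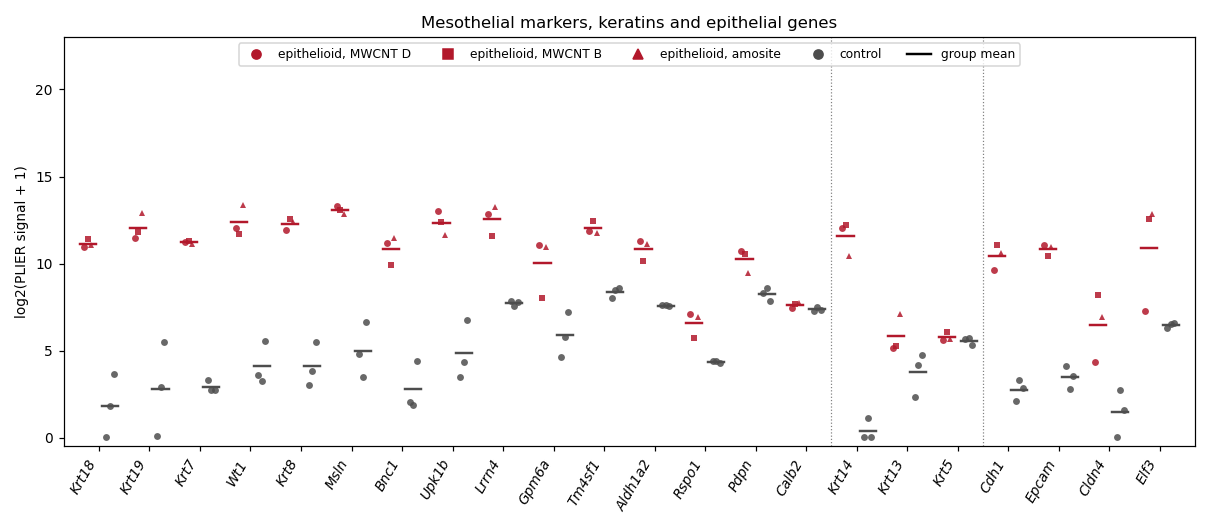
Log2 signal of mesothelial, keratin and epithelial genes in the 3 epithelioid tumors (left of each pair, 1 symbol for each inducer) and the 3 controls (right), with bars at the group means. Krt7, Krt8, Krt14, Krt18, Krt19, Wt1, Msln, Cdh1 and Epcam separate the groups without overlap, while Krt5 was not called. Elf3 is high in the MWCNT B and amosite tumors (12.56 and 12.86) and at 7.28 in the MWCNT D tumor.

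Mesenchymal genes rose beside the epithelial ones. Of 16 measured genes of mesenchymal transition, 9 rose and none fell, and 6 rose with centred arrays. Cadherin 11 (Cdh11), a cadherin of mesenchyme and bone, had log2 signals of 12.82, 11.73 and 13.59 in the epithelioid tumors, against 5.22, 6.27 and 6.86 in the controls (difference 6.60, standard error 0.88). Vimentin (Vim) had 13.86, 13.95 and 12.70 in the epithelioid tumors and 11.47, 12.17 and 11.80 in the controls (difference 1.69, standard error 0.40), and Sparc rose by 1.70. The groups did not overlap for these 3 genes. N-cadherin (Cdh2) had 7.43, 6.60 and 11.05 in the epithelioid tumors and 4.39, 4.33 and 4.63 in the controls, and its difference of 3.91 was 2.57 without the amosite tumor (adjusted p = 0.067). Fibronectin (Fn1) rose by 2.18 and the repressor Snai1 by 1.85, and leaving out 1 of 4 arrays for Fn1 (2.00 to 2.06) and 1 of 5 for Snai1 (1.41 to 1.88) ended the call, as did centring. The repressors Zeb1 and Zeb2 differed by -0.39 and 0.00, with adjusted p of 0.27 and 0.99.

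Matrix and invasion genes rose without any member falling. Of 33 collagen and laminin genes 15 rose, of 26 genes of matricellular proteins, proteoglycans and hyaluronan 12 rose, and of 30 proteases and inhibitors of invasion 19 rose. With centred arrays 7 collagen and laminin genes rose and 1 fell, and 8 matricellular genes and 13 proteases and inhibitors rose. Plod2, a lysyl hydroxylase of collagen crosslinking, had log2 signals of 12.60, 12.84 and 11.68 in the epithelioid tumors, against 8.15, 7.92 and 8.39 in the controls (difference 4.22, standard error 0.67). The crosslinking oxidase Lox rose by 3.59, the laminin chain Lama5 by 3.32 and the collagen chain Col5a2 by 2.60. The main fibrillar collagens Col1a1 and Col1a2 differed by 1.08 and 0.94 and were not called, and Col3a1 by 0.78. Osteopontin (Spp1) had 12.77, 11.67 and 9.31 in the epithelioid tumors, against 0.03, 6.55 and 6.33 in the controls (difference 6.95, standard error 1.73; 5.29 at the floor), and 1 control without signal widened its error. Syndecan 1 (Sdc1) rose by 5.26 and biglycan (Bgn) by 3.38. Tenascin C (Tnc) rose by 3.28, and by 2.40 without a call when the MWCNT B tumor was left out.

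Among the proteases, the membrane-type metalloproteinase Mmp14 had log2 signals of 13.07, 13.15 and 12.50 in the epithelioid tumors, against 9.56, 9.97 and 9.34 in the controls (difference 3.28, standard error 0.52). Stromelysin 3 (Mmp11) rose by 5.31 (3.77 at the floor), the inhibitor Timp1 by 5.08, the urokinase receptor Plaur by 4.11 (3.54 at the floor) and tissue plasminogen activator (Plat) by 3.80. Urokinase itself (Plau) differed by 0.01. Mmp7, a matrilysin of glandular epithelia, had 4.35, 14.86 and 14.85 in the epithelioid tumors, against 5.07, 4.93 and 4.91 in the controls. The MWCNT D tumor was below every control, and without the amosite tumor the difference was 4.64 (adjusted p = 0.088). The protease count fell to 12 when 1 array was left out, and was moved by over 1.5 times by the MWCNT B tumor, control 1 and control 3. The collagen and laminin count was 9 without the MWCNT B tumor. Of 19 integrin genes 9 rose and 2 fell (5 and 2 with centred arrays): the laminin receptor subunit Itga3 rose by 5.09, whereas Itgb6 fell by 4.07 and the muscle subunit Itga7 fell by 2.54. Without control 1 the integrin calls numbered 7.

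Proliferation genes rose as a block, and mitosis was the list with the highest share. All 31 measured mitotic genes rose, with a median difference of 4.16, also with centred arrays and when any single array was left out; 30 rose at the floor. Of 34 DNA replication genes 29 rose and none fell. The sequences before the start sites of 4 such genes are shown, picked because they hold the letters of known elements of cell cycle promoters. They are the 2 largest rises of each list among called genes whose window holds the letters. Mitotic genes are classically read through a CHR element (letters TTTGAA) and CCAAT boxes (CCAAT), and replication genes through E2F sites (GGCGGGAA or TTTGGCGC). Each window has 300 bases, most of them before the annotated start and the last of them in the transcript, and comes from RefSeq on the rat assembly GRCr8. Sequences run 5′ to 3′ on the gene's strand, and letters were searched on both strands. Capitals mark the CHR and CCAAT letters in the 2 mitotic genes and the E2F letters in the 2 replication genes, read on either strand.

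Ttk, GRCr8 chr8:93634389-93634688, plus strand: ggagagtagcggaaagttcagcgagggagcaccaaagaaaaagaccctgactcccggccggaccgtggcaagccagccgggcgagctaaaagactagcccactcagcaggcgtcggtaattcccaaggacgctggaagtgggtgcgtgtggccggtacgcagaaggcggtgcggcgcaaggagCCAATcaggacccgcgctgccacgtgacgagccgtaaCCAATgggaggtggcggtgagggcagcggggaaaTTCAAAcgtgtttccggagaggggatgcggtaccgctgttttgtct

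Cdk1, GRCr8 chr20:19265043-19265342, plus strand: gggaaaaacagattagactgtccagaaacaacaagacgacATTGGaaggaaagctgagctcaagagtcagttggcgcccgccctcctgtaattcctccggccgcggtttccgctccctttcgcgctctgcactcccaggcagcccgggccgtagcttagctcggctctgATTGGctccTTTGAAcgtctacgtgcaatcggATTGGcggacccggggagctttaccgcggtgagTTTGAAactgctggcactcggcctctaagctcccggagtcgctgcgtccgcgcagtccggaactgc

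Mcm3, GRCr8 chr9:30733697-30733996, minus strand: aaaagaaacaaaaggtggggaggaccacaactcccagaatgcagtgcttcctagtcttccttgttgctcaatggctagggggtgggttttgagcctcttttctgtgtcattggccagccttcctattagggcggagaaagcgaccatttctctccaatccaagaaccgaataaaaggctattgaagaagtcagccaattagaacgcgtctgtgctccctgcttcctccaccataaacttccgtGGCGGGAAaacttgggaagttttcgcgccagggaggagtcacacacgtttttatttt

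Tyms, GRCr8 chr9:120776034-120776333, minus strand: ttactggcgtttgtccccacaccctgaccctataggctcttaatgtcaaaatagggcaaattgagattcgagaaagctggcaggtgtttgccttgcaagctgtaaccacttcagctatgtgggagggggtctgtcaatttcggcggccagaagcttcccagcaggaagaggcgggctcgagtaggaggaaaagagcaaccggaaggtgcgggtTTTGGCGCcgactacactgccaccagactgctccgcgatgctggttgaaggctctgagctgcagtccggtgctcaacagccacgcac

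A promoter was matched by symbol for 27 of the 31 mitotic and 28 of the 34 replication genes, and for 11733 of all measured genes. The CHR letters were in 18 of the 27 mitotic promoters (66.7%), against 12.3% of all measured genes and 18.1% of all 27457 promoters of the table. Complement promoters held them in 6 of 12 (50%). CCAAT was in 20 of the 27 (74.1%), against 37.3% of all measured genes, and was not particular to mitosis, with 14 of 16 ER chaperone promoters (87.5%). The E2F letters were in 13 of 28 replication promoters (46.4%) and in 1 of the 27 mitotic ones (3.7%), against 4.32% of all measured genes. Promoters of mesothelioma tumor suppressor genes held them in 4 of 13 (30.8%). Some windows held letters of other elements that are not capitalized, such as CCAAT boxes in Mcm3, and the E2F and TEAD letters searched can overlap in the bases GGAA. A match of letters is a description of the window, not a measured binding site.

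Ttk, the spindle checkpoint kinase, had log2 signals of 7.42, 8.32 and 8.46 in the epithelioid tumors, against 3.18, 2.04 and 3.43 in the controls (difference 5.19, standard error 0.80; 3.07 at the floor). Cdk1, the kinase that drives entry into mitosis, had 9.97, 10.72 and 10.55 in the epithelioid tumors and 5.67, 5.97 and 5.25 in the controls (difference 4.78, standard error 0.60, adjusted p = 5.8e-05). The MWCNT D tumor was the lowest of the 3 tumors for both genes and still above all controls. The proliferation antigen gene Mki67 had 9.92, 10.47 and 10.42 in the epithelioid tumors and 5.60, 5.81 and 5.53 in the controls (difference 4.62). Topoisomerase Top2a had 10.22, 10.57 and 10.94 in the epithelioid tumors and 6.18, 6.22 and 6.15 in the controls (difference 4.39), and cyclin B1 (Ccnb1) rose by 4.45. The order of the tumors was the same for Ttk and Top2a, with amosite highest.

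In replication, Mcm3, a subunit of the helicase that opens origins, had log2 signals of 8.85, 8.94 and 9.22 in the epithelioid tumors, against 4.20, 3.82 and 4.94 in the controls (difference 4.69, standard error 0.40; 4.0 at the floor). Thymidylate synthase (Tyms) had 8.11, 8.19 and 8.99 in the epithelioid tumors and 2.96, 4.33 and 4.17 in the controls (difference 4.61; 3.43 at the floor). Mcm6 rose by 4.40, cyclin E1 (Ccne1) by 4.03 (2.64 at the floor) and the sliding clamp Pcna by 1.77. Of 21 chromatin and DNA methylation enzymes 7 rose and 1 fell. Uhrf1, which brings the maintenance methyltransferase to replicated DNA, rose by 3.49 (2.53 at the floor), the methyltransferase Dnmt1 by 2.75 and the Polycomb methyltransferase Ezh2 by 2.14. The demethylating dioxygenase Tet2 fell by 1.05, and the call ended without the amosite tumor or control 3 (-0.75 to -0.94).

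Of 14 mesothelioma tumor suppressor genes 5 rose, 1 fell and 8 were not called, near the shares over all genes, and with centred arrays 1 rose and 3 fell. Cdkn2a, which encodes p16 and ARF, had log2 signals of 5.64, 5.34 and 6.55 in the epithelioid tumors and 2.95, 3.98 and 4.09 in the controls; the difference of 2.17 was 0.84 at the floor, without a call, and leaving out any 1 of 6 arrays ended it. The neighboring inhibitor Cdkn2b differed by 0.07. Rb1 fell by 1.12, or by 0.96 without a call when the amosite tumor was left out. Bap1, a nuclear deubiquitinase, had 10.11, 10.23 and 10.38 in the epithelioid tumors and 10.90, 10.95 and 10.84 in the controls (difference -0.66, adjusted p = 0.0031, under the fold threshold), and was called lower only with centred arrays. Nf2, which encodes merlin, differed by -0.47 (adjusted p = 0.17) and was likewise called lower with centred arrays. Of 14 p53 target and GADD45 genes 5 rose and 2 fell (4 with centred arrays): Perp, a desmosomal p53 target, rose by 7.25 (3.25 at the floor) and the BH3-only gene Bbc3 by 2.30, whereas Ccng1 fell by 2.71 and Sesn1 fell by 2.13. Cdkn1a, the p21 gene, differed by -0.74 and was not called.

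In the Hippo pathway, which restrains the YAP coactivator and its TEAD partners, 10 of 18 measured genes rose and 1 fell (7 and 4 with centred arrays). Tead2 had log2 signals of 8.73, 8.84 and 9.70 in the epithelioid tumors, against 4.64, 4.10 and 4.63 in the controls (difference 4.63, standard error 0.39; 4.09 at the floor), whereas Tead4 fell by 1.95, with 1 of its 3 probe sets called higher. The LIM protein Ajuba rose by 3.90 and the scaffold Wwc1 by 6.49 (2.66 at the floor). The target Ccn1 rose by 2.32 and lost the call without the MWCNT D tumor, control 1 or control 2 (1.72 to 2.18), and the target Ccn2 differed by 1.78 (adjusted p = 0.10). The TEAD letters GGAATG were in 5 of 12 matched promoters of the list (41.7%), against 11.7% of all measured genes, and in 28.6% of the sarcomere promoters.

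Among 38 growth factors and receptors, 16 rose and 2 fell, and 10 rose at the floor, while 8 rose and 4 fell with centred arrays. Tgfa, an EGF receptor ligand, rose by 6.25 (3.30 at the floor), the ephrin receptor Epha2 by 3.31, and Gas6 with its receptor Mertk by 2.39 and 2.34. Egfr rose by 1.66 and Axl by 1.18, and neither kept its call when 1 of 4 or 1 of 5 single arrays was left out (1.29 to 1.66 for Egfr, 0.92 to 1.18 for Axl). Met differed by 0.09. Fgfr4 fell by 2.27. The receptor Ret fell by 4.93, with a call that ended without the MWCNT D tumor, the MWCNT B tumor, control 1 or control 2 (-4.33 to -4.93). For Ret the amosite tumor stood at 9.46 and the other epithelioid tumors at 5.98 and 6.12, against 12.35, 12.12 and 11.88 in the controls, and 1 of its probe sets was called higher. Without the MWCNT D tumor or without control 1 the calls of the list changed by over 1.5 times, to 11 at the lowest. In the TGF-beta and activin list 11 of 27 rose (6 with centred arrays), among them Ltbp2 (6.06; 4.33 at the floor), Inhbb (4.03), the activin binder Fstl3 (3.20) and Tgfb1 (2.72; 2.18 at the floor); the 1 that fell was Mstn, the myostatin of muscle, by 7.71. In the WNT list 9 of 23 rose, and 6 rose without the amosite tumor. With centred arrays 8 rose and 2 fell. Wnt5b had 7.5, 8.40 and 8.16 in the epithelioid tumors and 0.02, 0.01 and 0.01 in the controls. Its difference was 8.01, or 3.02 at the floor. Dkk3 rose by 4.54, Fzd2 by 3.39 and the feedback target Axin2 by 1.94. Another probe set of Dkk3 was called lower.

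Genes of skeletal muscle had the deepest falls. Of 35 sarcomere genes 34 fell and 1 rose, of 25 genes of muscle calcium and excitation 24 fell, and of 15 genes of muscle energy metabolism 14 fell. Myogenic factors read E-boxes with the letters CAGCTG. The start regions of 2 sarcomere genes are shown with these letters in capitals, from the same source and with the same window. They are the 2 deepest falls among called genes of the list whose window holds the letters.

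Myoz2, GRCr8 chr2:213852729-213853028, minus strand: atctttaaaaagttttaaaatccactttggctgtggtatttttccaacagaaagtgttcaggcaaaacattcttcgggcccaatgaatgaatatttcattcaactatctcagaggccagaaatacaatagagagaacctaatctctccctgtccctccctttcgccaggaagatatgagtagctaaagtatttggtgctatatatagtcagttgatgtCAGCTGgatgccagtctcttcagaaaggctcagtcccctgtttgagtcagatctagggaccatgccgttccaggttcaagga

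Myh4, GRCr8 chr10:52421898-52422197, plus strand: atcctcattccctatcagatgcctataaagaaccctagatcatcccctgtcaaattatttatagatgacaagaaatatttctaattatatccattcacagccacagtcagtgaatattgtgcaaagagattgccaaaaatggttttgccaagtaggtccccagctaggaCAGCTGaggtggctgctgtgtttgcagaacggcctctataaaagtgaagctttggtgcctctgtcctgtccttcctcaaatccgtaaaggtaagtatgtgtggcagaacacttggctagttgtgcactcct

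The letters were in 8 of 28 matched sarcomere promoters (28.6%), 10 of 21 of the calcium list (47.6%) and 9 of 15 of the energy list (60%), against 16.6% of all measured genes. Shares above that of the sarcomere list were not confined to muscle: T and NK cell promoters held the letters in 6 of 16 (37.5%). Myoz2, a protein of the Z-disc, had log2 signals of 2.50, 3.19 and 2.92 in the epithelioid tumors, against 15.63, 15.06 and 16.05 in the controls (difference -12.71, standard error 0.31; -10.58 at the floor). The fast myosin heavy chain Myh4 had 4.88, 4.99 and 4.66 in the epithelioid tumors and 17.39, 17.38 and 17.41 in the controls (difference -12.55, standard error 0.21, adjusted p = 4.7e-13). Signals of both genes were at or below the floor in every epithelioid tumor. Pgam2, the muscle isoform of phosphoglycerate mutase, had 5.12, 5.24 and 5.07 in the epithelioid tumors and 19.33, 19.36 and 19.28 in the controls (difference -14.18, standard error 0.33). The myosin light chain Myl2 fell by 14.63 (-12.17 at the floor), although only 1 of its 2 probe sets was called. Others among the 12 deepest falls were the sarcomere proteins Cmya5, Mypn and Actn2, the junctophilin Jph1, the calcium channel subunit Cacng1, the calcium buffer Pvalb, the reticulum protein Hrc and the muscle cytochrome oxidase subunit Cox8b, with differences from -12.91 to -14.32.

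Exceptions in the muscle lists were few. Tpm2, a tropomyosin shared with smooth muscle and other cells, had log2 signals of 10.48, 11.68 and 8.32 in the epithelioid tumors and 7.16, 7.49 and 7.86 in the controls (difference 2.66, adjusted p = 0.029); the call ended when 1 of 5 arrays was left out (1.90 to 2.84) and with centred arrays, and its other probe set differed by -10.31. The acetylcholine receptor subunit Chrna1 (-0.56) and Ldhb (-1.09) were not called. Of 12 smooth muscle and myofibroblast genes 3 rose and 3 fell. Acta2, the smooth muscle actin of myofibroblasts, had 10.55, 10.90 and 9.54 in the epithelioid tumors and 7.05, 7.42 and 7.49 in the controls (difference 3.01, standard error 0.34), and caldesmon (Cald1) rose by 2.21. Lmod1 fell by 5.80, Synpo2 fell by 4.93, and desmin (Des) fell by 2.83 with a call that ended without 1 of 6 arrays (-2.04 to -3.11).

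Energy metabolism differed by isoform. Of 23 genes of glucose transport and glycolysis 9 rose and 5 fell; with centred arrays 8 rose and 10 fell. Slc2a4, the insulin-regulated transporter GLUT4 of muscle and fat, had log2 signals of 6.32, 6.45 and 4.79 in the epithelioid tumors, against 12.91, 12.79 and 12.92 in the controls (difference -7.02, standard error 0.70). Slc2a1, the widely expressed transporter GLUT1, had 11.09, 9.77 and 9.19 in the epithelioid tumors, against 5.84, 6.45 and 6.38 in the controls (difference 3.79, standard error 0.97). The groups were separated for both transporters, in opposite directions. The muscle enzymes Pfkm (-4.11), Eno3 (-5.36) and Pgam2 (-14.18) fell, whereas the isoforms Pfkp, Eno1, Eno2 and Pgam1 of other tissues rose by 3.08, 2.33, 3.81 and 2.50. Hexokinase Hk1 rose by 2.51 and Hk2 differed by -0.22. In fatty acid oxidation, 14 of 21 genes fell and 1 rose. The liver-type carnitine palmitoyltransferase Cpt1a had 10.41, 10.68 and 10.66 in the epithelioid tumors and 7.44, 7.74 and 7.71 in the controls (difference 2.96), whereas the muscle type Cpt1b fell by 5.20, the kinase Pdk4 fell by 5.59 and the uncoupler Ucp3 fell by 7.37. Of 50 oxidative phosphorylation genes 28 fell and 2 rose, and with centred arrays 48 fell and 1 rose. Cox6a1 and Cox8a, the isoforms of non-muscle tissues, rose by 1.85 and 1.27, Cox8a without a call when arrays were centred. The muscle isoforms Cox6a2 (-6.83), Cox8b (-13.06) and Cox7a1 (-2.33) fell, and the complex I subunit Ndufs3 fell by 2.16. The sarcomere list moved with these groups, at no more than 0.0366% of the signal of any epithelioid tumor and at least 8.29% in every control, and its part in the isoform differences was not tested.

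**Figure D3:**
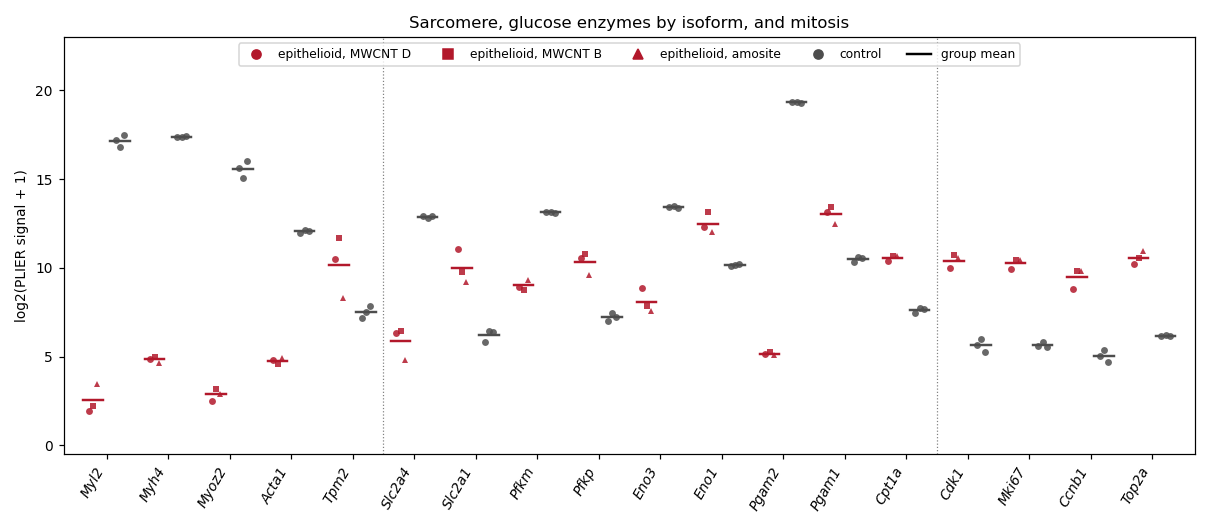
Log2 signal of sarcomere genes (left), glucose and fatty acid genes by isoform (middle) and proliferation genes (right) in the 3 epithelioid tumors (left of each pair) and the 3 controls (right), with bars at the group means. Pgam2 and Eno3 are low and Pgam1 and Eno1 high in the tumors, Slc2a4 and Slc2a1 move in opposite directions, and Cdk1, Mki67, Ccnb1 and Top2a are above all controls.

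Among the immune lists, macrophage genes had the highest share of rises: of 20 measured genes 16 rose, 13 of them also with centred arrays. Gpnmb, a glycoprotein of lysosome-rich macrophages, had log2 signals of 13.55, 12.45 and 12.23 in the epithelioid tumors, against 6.57, 8.45 and 6.74 in the controls (difference 5.49, standard error 0.59). The lysosomal marker Cd68 had 10.68, 10.82 and 9.01 in the epithelioid tumors and 6.01, 7.89 and 7.07 in the controls (difference 3.18, standard error 0.59). The amosite tumor was the lowest of the 3 for both and remained above the controls. The Fc receptor Fcgr3a rose by 4.83 and the beta-glucan receptor Clec7a by 4.72, whereas the scavenger receptor Cd163 of resident macrophages differed by -0.05 and Mrc1 by 1.01. Of 10 neutrophil genes 5 rose, among them Lcn2 (6.17), which epithelia also make, and S100a8 (5.94), which was not called at the floor. Without the MWCNT B tumor or control 1 the neutrophil calls changed by over 1.5 times, to 3 at the lowest. Of 21 T and NK cell genes 1 was called, Cd8b, by 3.91, or by 0.19 at the floor; Cd3e differed by 0.76 (adjusted p = 0.60). Without sarcomatoid tumor 1 or 2 or biphasic tumor 1 or 2, which enter through the shared error, the T and NK count was up to 5. Of 9 B cell genes, Blnk rose by 5.07 and Prdm1 by 2.43. All 18 endothelial genes were left uncalled by limma, with Pecam1 at -0.43 and Kdr at 1.01; 1 was called without sarcomatoid tumor 1.

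Of 29 chemokine genes 9 rose and none fell, a share near the 27.3% over all genes, and 6 rose at the floor. Cxcl6 rose by 7.91 (3.73 at the floor), Cxcl1 by 6.25 (4.38 at the floor), both attractants of neutrophils, and Cxcl16, a membrane-bound chemokine, by 4.70. The monocyte attractant Ccl2 rose by 3.21. Cxcl13, which draws B cells to follicles, had log2 signals of 9.75, 13.83 and 9.52 in the epithelioid tumors, against 4.86, 4.94 and 5.54 in the controls (difference 5.92), highest in the MWCNT B tumor. Of 26 cytokine genes 12 rose and 1 fell (6 and 1 at the floor, 7 and 1 with centred arrays): Il1rl1, the receptor of IL-33, rose by 6.27 (not called at the floor), Il18 rose by 4.90, and Il15, which muscle makes, fell by 3.99. Complement C3 had 13.36, 11.58 and 11.99 in the epithelioid tumors and 3.91, 5.81 and 4.40 in the controls. Its difference was 7.60 (standard error 0.89), or 7.04 at the floor. Of 18 complement genes 8 rose and 1 fell (6 and 1 at the floor, 6 and 2 with centred arrays). Of 20 antigen presentation genes 11 rose and none fell, led by the peptide transporter Tap1 (4.30; 3.19 at the floor) and the immunoproteasome subunits Psmb9 (3.33) and Psmb8 (3.31). Of 22 interferon response genes 6 rose and 1 fell, the share over all genes, with Bst2 rising by 3.99 and Irf1 by 2.22. Without sarcomatoid tumor 1 or biphasic tumor 3, which enter through the shared error, up to 11 interferon genes were called. Of 6 checkpoint genes Cd276 rose by 2.37 and Vsir by 2.10, and Vsir was not called when the MWCNT D or MWCNT B tumor was left out (1.75 to 1.77).

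Further groups were described by count. Of 20 ER chaperone genes 13 rose, 12 of them also with centred arrays, led by the disulfide isomerases Pdia4 (3.30, standard error 0.29) and Pdia3 (2.79, standard error 0.17) and the chaperone Hsp90b1 (2.32). Of 20 AP-1 and immediate early genes 8 rose and 1 fell, with 5 calls in all when the MWCNT B tumor was left out and 4 with centred arrays. Myc had log2 signals of 10.01, 10.12 and 10.03 in the epithelioid tumors, against 7.35, 6.87 and 7.13 in the controls (difference 2.94, standard error 0.33), whereas Nr4a1, an immediate early nuclear receptor, fell by 3.20 and Fos and Jun differed by 1.11 and 0.45 without a call. Of 14 BCL2 family genes 8 rose, 3 with centred arrays, among them Bok (2.96). Of 25 iron and antioxidant genes 8 rose, with heme oxygenase (Hmox1) rising by 3.73 and metallothionein Mt2A by 3.97; Nqo1 differed by 0.02. Of 16 eicosanoid genes 7 rose and 1 fell, with prostacyclin synthase (Ptgis) rising by 5.24. Of 10 vascular growth factor genes 6 rose: adrenomedullin (Adm) by 3.74 and Hif1a by 1.94 were called, and Vegfa differed by 0.42. Of 28 ribosomal protein genes 10 rose, and 1 rose when the arrays were centred. Of 19 adipocyte genes, which include fat-cell hormones and lipid droplet proteins, 2 fell.

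Lists drawn from the study itself were chosen on these samples and are not independent evidence of direction. The first holds genes named there for mesothelioma. Of its 33 measured members, 25 rose and 4 fell. The 4 that fell were the tubulins Tuba8 (-7.5) and Tuba4a (-3.43), the mitochondrial mutase Mmut (-2.04) and the autophagy kinase Ulk2 (-1.61). A second such list holds the genes with RT-qPCR assays. On the arrays, 1 of its 6 members rose, 4 fell and 1 was not called. The 4 that fell were Ret, Plaat1 (-4.23), Nr4a1 and Fgfr4. Gadd45b differed by 1.13 and was not called.

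To ask where epithelioid tumors differ from the other tumor types, they were compared with the 5 sarcomatoid and the 3 biphasic tumors in the same fit, in which the controls do not enter the difference itself. Against sarcomatoid tumors, 6 of 15 mesothelial, 2 of 17 epithelial and 3 of 27 junction and polarity genes were higher in the epithelioid tumors, and the other members of these lists were not called. Against sarcomatoid tumors, 236 probe sets were called (0.76%), and by gene 112 were higher (0.788%) and 10 lower (0.0703%) in the epithelioid tumors. Of the 112, 89 were also higher than in the controls, 7 were lower than in the controls and 16 were not called against them. For 83 of the 112, all 3 biphasic tumors also lay above all 5 sarcomatoid tumors. The 112 were selected for a difference from the same sarcomatoid tumors, which favours such a separation. The share of all genes with this separation was not computed. The count depended on single tumors: it was 23 probe sets without the amosite epithelioid tumor, 42 without the MWCNT D epithelioid tumor, 87 without sarcomatoid tumor 3, 110 without sarcomatoid tumor 4 and 421 without sarcomatoid tumor 1, which held 4.52% of its signal in acinar genes. Without the MWCNT B epithelioid tumor it was 363, and without single controls 104 to 128. With the inducer as a term, 219 probe sets were called, but of the 122 genes called higher or lower 72 kept their call and 50 lost it, among them Krt19, Egfl6, Cldn3, Rspo1, Pou2af1, Arrb1 and Glrx. At the floor 85 of the 122 genes kept their call, and 87 did so with centred arrays. Differences from sarcomatoid tumors are given below without the floor.

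Of the 15 mesothelial genes, 6 were higher in epithelioid than in sarcomatoid tumors. Krt7 had log2 signals of 11.26, 11.27 and 11.15 in the epithelioid tumors, against 4.71, 8.10, 6.04, 5.07 and 5.87 in the sarcomatoid tumors (difference 5.27, standard error 0.66, adjusted p = 0.0062). This was called with every single array left out, and the biphasic tumors had 12.51, 12.18 and 10.39. Bnc1 had 11.17, 9.90 and 11.48 in the epithelioid tumors, against 4.43, 7.25, 4.28, 4.62 and 5.40 in the sarcomatoid tumors (difference 5.66, standard error 0.76, adjusted p = 0.0083), and lost the call without the MWCNT D tumor (5.5) or the amosite tumor (5.34). Lrrn4 had 12.86, 11.57 and 13.24 in the epithelioid tumors, against 7.75, 10.27, 8.30, 8.57 and 7.73 in the sarcomatoid tumors (difference 4.03, standard error 0.52), and 3.69 without a call when the amosite tumor was left out. Sarcomatoid tumor 2 was the highest of its group for all 3 genes and below every epithelioid tumor. The other members were Krt19 (5.57), Tm4sf1 (2.22) and Rspo1 (1.71). The calls of Krt19 and Tm4sf1 ended without 1 of 7 and 1 of 10 single arrays (5.15 to 5.87 and 1.97 to 2.34).

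Other mesothelial genes were not called against sarcomatoid tumors. Wt1 had log2 signals of 12.06, 11.68 and 13.39 in the epithelioid tumors, against 7.08, 10.73, 11.59, 11.54 and 11.40 in the sarcomatoid tumors (difference 1.91, standard error 0.94, adjusted p = 0.41). Msln had 13.29, 13.06 and 12.83 in the epithelioid tumors, against 7.92, 11.11, 11.57, 11.61 and 11.41 in the sarcomatoid tumors (difference 2.34, standard error 0.82, adjusted p = 0.24). The groups did not overlap for either gene, and sarcomatoid tumor 1 was the lowest for both. These p-values miss the threshold and do not show that the levels are alike.

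Among epithelial and junction genes, Epcam had log2 signals of 11.06, 10.44 and 10.97 in the epithelioid tumors, against 6.58, 7.89, 4.47, 5.22 and 4.29 in the sarcomatoid tumors (difference 5.13, standard error 0.97, adjusted p = 0.035), and leaving out 1 of 9 arrays ended its call (4.78 to 5.32). The tight junction genes Cgn (3.33) and Cldn3 (2.12), the polarity gene Pard6b (2.29) and the desmosomal plakophilin Pkp2 (2.53) were also higher. Pkp2 had 8.86, 7.5 and 8.95 in the epithelioid tumors and 5.90, 6.03, 5.90, 6.64 and 5.09 in the sarcomatoid tumors, whereas the controls had 8.46, 8.20 and 8.31, a difference of 0.12 from the epithelioid tumors. Fxyd3, a regulator of the sodium pump in epithelia, had 11.47, 11.82 and 10.98 in the epithelioid tumors, against 5.06, 8.56, 5.77, 5.21 and 5.59 in the sarcomatoid tumors (difference 5.39, standard error 0.85, adjusted p = 0.019). Mal2, a protein of transcytosis in polarized cells, had 11.88, 10.57 and 12.02 in the epithelioid tumors, against 4.41, 4.78, 4.33, 4.41 and 3.92 in the sarcomatoid tumors (difference 7.12, standard error 1.19, adjusted p = 0.024), while the biphasic tumors were spread over 4.68, 12.43 and 9.35. The sarcomatoid tumors lay near the level of the controls, at 4.08 to 4.48, for this gene. Leaving out the MWCNT D or amosite epithelioid tumor ended the calls of Pkp2, Fxyd3, Cgn and Mal2.

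Ptgds had log2 signals of 12.64, 12.43 and 13.52 in the epithelioid tumors, against 8.47, 7.98, 5.18, 4.52 and 2.31 in the sarcomatoid tumors (difference 7.17, standard error 1.16, adjusted p = 0.020), and it was the highest difference among the genes named by rule. Krt14 had 12.03, 12.24 and 10.45 in the epithelioid tumors and 6.27, 9.49, 5.93, 6.95 and 7.21 in the sarcomatoid tumors (difference 4.40, adjusted p = 0.020). Tead2 had 8.73, 8.84 and 9.70 in the epithelioid tumors and 5.99, 7.19, 6.39, 5.78 and 7.01 in the sarcomatoid tumors (difference 2.62, standard error 0.35, adjusted p = 0.0083), and 2.31 without a call when the amosite tumor was left out. Egfl6, a secreted protein of the basement membrane, had 9.86, 6.67 and 10.94 in the epithelioid tumors and 3.98, 3.02, 1.48, 3.31 and 3.23 in the sarcomatoid tumors (difference 6.16). Hhatl, a membrane protein of striated muscle, had 9.49, 6.11 and 10.56 in the epithelioid tumors and 5.49, 0.01, 2.38, 2.33 and 2.21 in the sarcomatoid tumors (difference 6.24), but 12.24, 12.12 and 12.13 in the controls. The sarcomatoid values lay below the floor for Egfl6, and for Hhatl in all but sarcomatoid tumor 1, so that the size of both differences has little meaning. The MWCNT B tumor was the lowest epithelioid tumor for both Egfl6 and Hhatl, and both calls ended without the MWCNT D or amosite tumor.

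Few genes were lower in epithelioid than in sarcomatoid tumors. Pou2af1, a B cell coactivator, had log2 signals of 3.90, 3.93 and 3.19 in the epithelioid tumors, against 11.92, 10.42, 11.75, 6.06 and 7.58 in the sarcomatoid tumors (difference -5.88, standard error 1.19, adjusted p = 0.044). The epithelioid tumors were at the level of the controls, below the floor, and the sarcomatoid tumors were spread over almost 6 units. The call ended without 1 of 10 single arrays, with differences from -5.32 to -6.00. The beta-arrestin gene Arrb1 had 7.83, 8.24 and 7.90 in the epithelioid tumors, against 8.78, 9.02, 9.12, 9.20 and 9.11 in the sarcomatoid tumors (difference -1.05, standard error 0.20), and was higher than in the controls, at 6.59, 7.26 and 6.40, though not with centred arrays. The adapter Dok1 behaved in the same way, with 7.85, 8.20 and 7.27 in the epithelioid tumors and 5.36, 5.63 and 5.69 in the controls, and a difference from sarcomatoid tumors of -1.65. Glutaredoxin (Glrx) differed by -1.18. No gene of the mesenchymal, collagen, protease, macrophage, mitosis or replication lists was called against sarcomatoid tumors, which does not show that these lists were alike.

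Against biphasic tumors no probe set was called by limma (0.0%), with 1548 probe sets at an unadjusted p below 0.05 and a lowest adjusted p of 0.338. The corresponding numbers at an unadjusted p below 0.05 were 4132 against sarcomatoid tumors and 16795 against controls. Across all probe sets, r was 0.875 to 0.951 between epithelioid and biphasic tumors, and 0.823 to 0.939 between epithelioid and sarcomatoid tumors, pairs that share arrays. Without the MWCNT B epithelioid tumor, 21 probe sets were called. Krt7, Msln and Epcam differed from biphasic tumors by -0.47, -0.01 and 0.14.

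**Figure D4:**
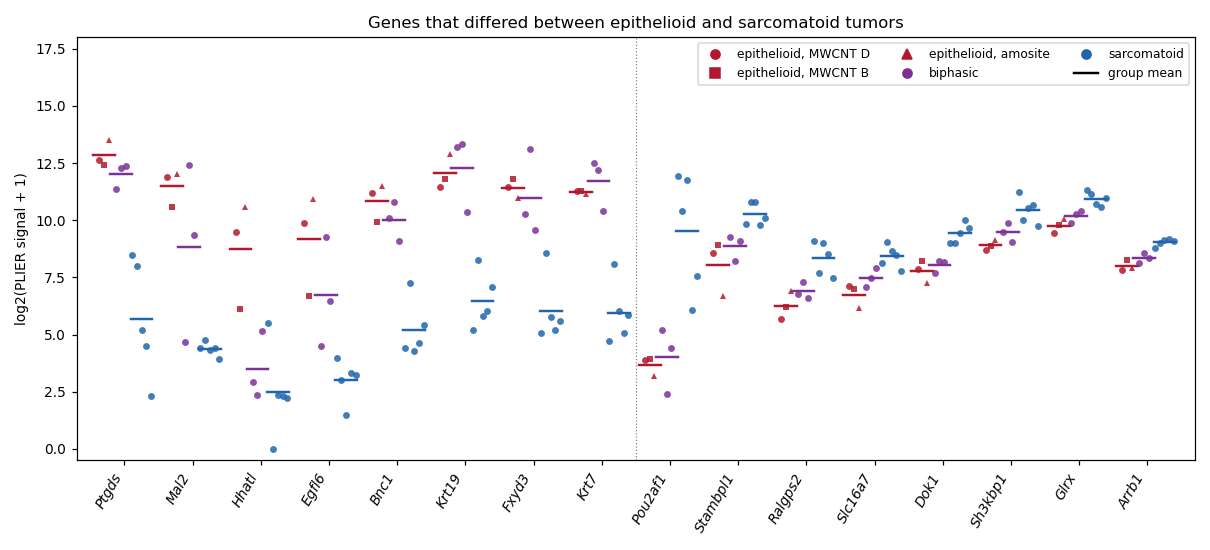
Log2 signal of the 16 genes named by rule for the comparison of epithelioid (left) with sarcomatoid tumors (right), with the biphasic tumors between them; each point is 1 tumor. The first 8 genes are higher in the epithelioid tumors, from Ptgds (difference 7.17) to Krt7 (5.27), and the last 8 lower, led by Pou2af1 (-5.88).

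The 3 epithelioid tumors differed among themselves in sets of genes that were high in 1 or 2 of them by at least 4 log2 units over the rest, with a log2 signal of at least 8 where high. These are single tumors without replicates, and no test was made. The amosite tumor alone was high for 98 genes, of which 20 were members of the acinar list. The MWCNT B tumor alone was high for 4 and the MWCNT D tumor alone for 3. Ctrb1, the chymotrypsinogen of acinar cells, had log2 signals of 7.74, 7.67 and 19.10 in the epithelioid tumors, against 7.16, 7.32 and 7.52 in the controls. The only other tumor with a comparable value was sarcomatoid tumor 1, at 18.89. Genes outside the acinar list were high in the amosite tumor as well, and some of these are also pancreatic. Ins2 belongs to the islet list, and the trypsin gene Prss3b stood at 16.06 in the amosite tumor and reached 15.51 in a tumor of another type. The cystatin Cst12 had 6.04, 6.50 and 17.80 in the epithelioid tumors and 6.61, 6.72 and 6.38 in the controls, and no biphasic or sarcomatoid tumor was above 6.43. Minar2 had 7.27, 6.97 and 17.17, the cardiac troponin Tnni3 4.77, 5.89 and 15.01, the neural POU factor Pou3f3 4.04, 3.22 and 12.56, and the ATP-gated channel P2rx2 7.03, 6.43 and 15.59 in the epithelioid tumors. All 4 were low in the other tumors and the controls. In the same set, the ovarian factor Foxl2 had 6.47, 6.30 and 13.47, the steroid dehydrogenase Hsd3b1 5.23, 5.61 and 13.91, and the anti-Müllerian hormone receptor Amhr2 6.87, 7.69 and 12.34 in the epithelioid tumors, where the controls had 9.38, 9.78 and 9.37. Without the amosite tumor Tnni3 was called lower in the epithelioid tumors than in the controls (difference -2.28).

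Other genes were shared by 2 of the 3 tumors. The MWCNT B and amosite tumors were both high for 18 genes. Mmp7 had log2 signals of 4.35, 14.86 and 14.85 in the epithelioid tumors, and no biphasic or sarcomatoid tumor was above 4.96. The intestinal galectin Lgals4 had 5.79, 13.48 and 13.21 in the epithelioid tumors, against 5.22, 4.67 and 4.67 in the controls, and biphasic tumors 1 and 2 had 15.07 and 13.25. The stomach claudin Cldn18 had 3.55, 9.60 and 8.44, the secretory disulfide isomerase Agr2 5.12, 11.30 and 10.62, and the epithelial peroxidase Gpx2 7.16, 11.18 and 11.44 in the epithelioid tumors. The MWCNT D and MWCNT B tumors were both high for 16 genes, among them fat-cell genes: Cidec had 8.97, 10.20 and 2.99 in the epithelioid tumors, against 7.70, 9.05 and 8.94 in the controls, and Plin1 9.17, 10.25 and 5.14 in the epithelioid tumors, against 8.59, 9.84 and 10.03 in the controls. The amosite tumor lay below the other epithelioid tumors and the controls for both genes, which was not particular to it: biphasic tumors 1 and 2 and sarcomatoid tumor 2 had 0.05, 3.67 and 0.0 for Cidec and 5.17, 3.67 and 5.32 for Plin1. The alarmin Il33 had 11.73, 12.53 and 7.09 in the epithelioid tumors and 8.13, 8.81 and 8.83 in the controls, and the peptide gene Gpr15lg 11.19, 13.11 and 3.56 in the epithelioid tumors and 4.36, 4.16 and 3.28 in the controls. Without the amosite tumor both were called higher (3.54 and 8.22).

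The MWCNT D and amosite tumors were both high for 7 genes. The homeobox factor Msx2 had log2 signals of 12.74, 5.45 and 14.48 in the epithelioid tumors, against 4.41, 4.68 and 5.26 in the controls, and no biphasic or sarcomatoid tumor was above 6.02. The growth factor Igf2 had 13.08, 7.57 and 13.52 in the epithelioid tumors and averaged 9.78 ± 0.24 in the controls (SD, n = 3), so that the MWCNT B tumor was below the controls and the others above. H19, the imprinted RNA beside Igf2, had 14.68, 8.43 and 10.08 in the epithelioid tumors and 15.51, 15.59 and 15.32 in the controls, and was high in the MWCNT D tumor alone. For H19 the MWCNT D tumor came closest to the controls, and all 3 tumors were below them (difference -4.41, adjusted p = 0.0072). The melanocyte gene Mlana was the clearest in the MWCNT D tumor alone, with 10.17, 5.04 and 4.91 in the epithelioid tumors, against 4.25, 4.23 and 4.69 in the controls, and no other sample of the series was above 5.55. Aggrecan (Acan), a cartilage proteoglycan, was high in the MWCNT B tumor alone among the epithelioid tumors, with 5.68, 11.31 and 5.58, against 6.04, 6.06 and 6.23 in the controls. It was not particular to that tumor, since 4 of the 5 sarcomatoid tumors had 9.61 to 12.87.

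**Figure D5:**
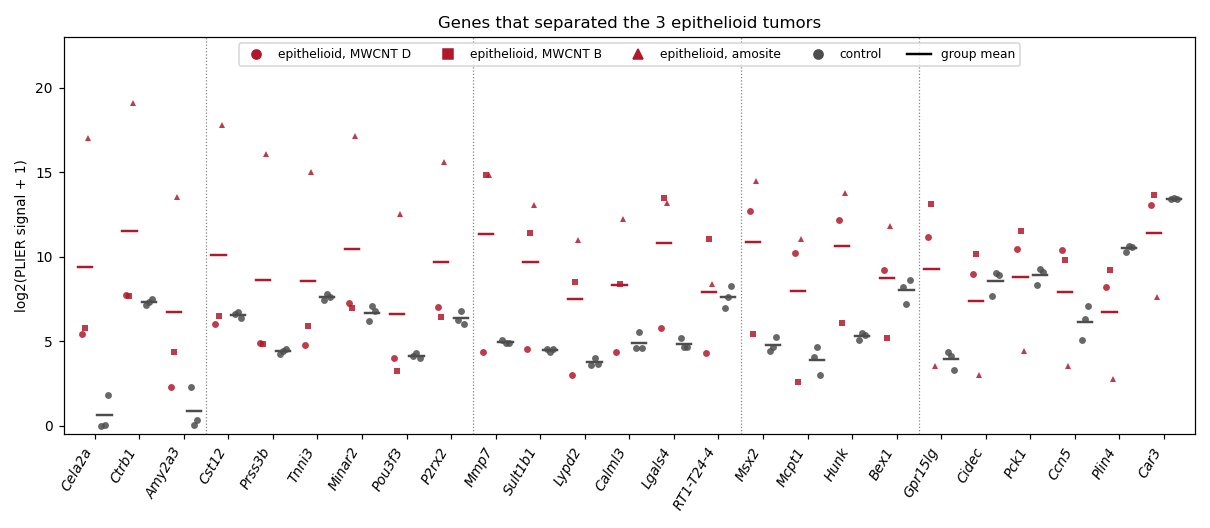
Log2 signal in the 3 epithelioid tumors (left of each pair, 1 symbol for each inducer) and the 3 controls (right) of genes that set the epithelioid tumors apart from each other, grouped by the tumors in which they were high. From left to right, the first 2 groups are members of the acinar list and genes outside that list high in the amosite tumor alone, among them the trypsin gene Prss3b. Then follow genes high in the MWCNT B and amosite tumors, in the MWCNT D and amosite tumors, and in the MWCNT D and MWCNT B tumors. Cst12 reaches 17.80 in the amosite tumor.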

How the data were processed

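RNA of 14 rat tissues was measured on Affymetrix GeneChip expression arrays for the rat, 1 array per sample. The deposited values are linear signal intensity per probe set, which the authors summarised with PLIER in the Transcriptome Analysis Console, with no aligner or genome build involved; replicates were not pooled. Groups were taken from the tissue labels (titles for controls), and each array is labelled as a biological replicate. Of 31099 probe sets, 57 Affymetrix controls were removed, and log2(intensity + 1) of 31042 was fitted with limma 3.58.1 (R 4.3.3) in 1 model of 4 groups, with Benjamini-Hochberg adjustment over all probe sets. Some 20826 probe sets had 1 gene symbol, 436 had several and 9780 had none; of several probe sets, the brightest on average across the 14 arrays stood for the gene (14217 genes, 4525 with several probe sets). Named genes are the 12 highest rises and falls against controls, the 8 each way against other tumor types (groups not overlapping, mean log2 of at least 8 in the higher group), the top, defining and opposing members of each of 51 lists, and the widest ranges among epithelioid tumors. Genes high in 1 or 2 epithelioid tumors were found with a gap of 4 log2 units. The members and lists were chosen with earlier results of these data known. Promoters are RefSeq windows of 300 bases. Summaries were made with Python 3.11.15, pandas 2.3.3 and NumPy 2.4.6, and the fit was tested on simulated data. Precision is set by the number of arrays, since intensities carry no read depth. Alternatives were other scaling, a floor, a pseudocount of 32, filters, other variance models, an inducer term, and leaving out each array.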

Additional observations from a re-analysis of the deposited data

Results flagged for a closer look

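The difference between epithelioid and sarcomatoid tumors was tested directly in the fit, and the 16 genes named for it are listed here because the effect differed between 2 tumor types; the values are epithelioid minus sarcomatoid on the log2 scale. Higher in epithelioid tumors were the epithelial and mesothelial genes Mal2 (7.12), Bnc1 (5.66), Krt19 (5.57), Fxyd3 (5.39) and Krt7 (5.27). Ptgds (7.17), Hhatl (6.24) and Egfl6 (6.16) were higher as well. Lower in epithelioid tumors were Pou2af1 (-5.88), the deubiquitinase Stambpl1 (-2.21), the guanine exchange factor Ralgps2 (-2.08), the monocarboxylate transporter Slc16a7 (-1.68), Dok1 (-1.65), the adapter Sh3kbp1 (-1.54), Glrx (-1.18) and Arrb1 (-1.05). Of the 16, Krt7 kept its call with every single array left out. Stambpl1 had log2 signals of 8.57, 8.91 and 6.68 in the epithelioid tumors, against 9.84, 10.81, 10.78, 9.79 and 10.11 in the sarcomatoid tumors, and its call ended without 1 of 11 arrays (-1.52 to -2.47). With the inducer as a term, the calls of Krt19, Egfl6, Pou2af1, Stambpl1, Ralgps2, Slc16a7, Sh3kbp1, Glrx and Arrb1 ended. Dixon's test for an outlying sample was not applied, since the groups compared with controls hold 3 samples.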

How the results depend on the processing

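Against the controls, 10620 probe sets were called, 9484 to 11120 when 1 array was left out and 7993 to 11235 under the other settings except a stricter adjusted p of 0.001 (5025) and counting genes in place of probe sets (5292). The share of calls that were higher, 71.8%, was 49.9% after quantile normalization and 41.5% with centred arrays, and 70.8% to 72.1% when 1 array was left out. Calls within the gene lists numbered 529, and 288 at the stricter adjusted p, with 456 to 578 when 1 array was left out. Against sarcomatoid tumors, 236 probe sets were called, 54 with only the arrays of the 2 groups, 32 without moderation of variances, 2 at the stricter adjusted p, 122 counted as genes, and 23 (without the amosite epithelioid tumor) to 421 (without sarcomatoid tumor 1) when 1 array was left out. Against biphasic tumors, 0 were called by limma, 1 at the floor and 0 to 21 when 1 array was left out, 21 without the MWCNT B epithelioid tumor. With the probe set of highest mean over the 6 arrays of epithelioid tumors and controls, Ncam1 was -0.34 instead of 4.69 and Tpm2 -10.31 instead of 2.66, because another probe set then stood for the gene. Of 535 named or listed calls against controls, 460 kept their call after quantile normalization, 428 with centred arrays, 473 at the floor, 493 without the amosite tumor and 509 with an inducer term. Of 122 genes called against sarcomatoid tumors, 72 kept their call and 50 lost it with the inducer term, while 85 kept it at the floor and 87 with centred arrays. No paired analysis was possible, because the controls came from other rats than the tumors. The replicate numbers only count samples within an inducer or within the controls, and pair no samples. The inducer, which tumors of different types share, was entered as a term instead. Signals near background limit the size of the rises: of 3877 higher genes, 923 had a control mean below the floor, and 507 of these were called there.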

Other observations

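Several gene groups outside the comparisons above were measured in the epithelioid tumors. Ncam1, a cell adhesion molecule of nerve and regenerating muscle, had log2 signals of 10.25, 10.05 and 7.79 in the epithelioid tumors, against 4.68, 4.62 and 4.71 in the controls, and 2 of its 3 probe sets were called higher. Genes of embryonic development were among those higher in epithelioid than in sarcomatoid tumors: the cardiac and mesothelial factor Gata5 differed by 4.47, Mycn by 4.12, the neural factor Sox11 by 3.51, the hedgehog coreceptor Gas1 by 3.78, the hedgehog transducer Smo by 2.02 and the growth factor Fgf18 by 3.23. The apical polarity gene Crb2 differed by 4.44 and the sialomucin Podxl by 2.67. Leaving out the amosite tumor ended the calls of Gata5, Mycn, Sox11, Gas1, Smo, Fgf18 and Podxl, leaving out the MWCNT D tumor ended all of these but Sox11, and Mycn and Smo lost the call without any of 11 and 8 single arrays (3.41 to 4.44 and 1.7 to 2.16). These genes were picked after their values were seen, and no list of developmental genes was tested. Of 15 mast cell genes 5 were called higher than in controls, 2 without control 1 and 1 at the floor. Liver genes numbered 3 of 12 higher, 1 without the amosite tumor and 0 at the floor by limma.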
